A study of Homo sapiens with 9 samples.

Results

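The genes described here are 10 members of the NRF2 antioxidant pathway, taken out of 27860 genes measured by RNA sequencing in DU145 cells. They were chosen by name and role: *NFE2L2* and *KEAP1* as the regulator pair, and *NQO1*, *HMOX1*, *GCLC*, *GCLM*, *TXNRD1*, *SRXN1*, *AKR1C1* and *AKR1B10* as commonly used target genes. Earlier results of these data were known when they were chosen. All 10 were found in the tables, and 9 of them reached the mean of 1 FPKM needed to enter the test. *AKR1C1* did not and is described by its level only. FPKM divides the fragments of a transcript by its length and by the depth of the library, so levels can be set side by side between genes on this scale.

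DU145 is a long-established line grown from a human prostate cancer. The 9 libraries fall into 3 groups of 3: cells expressing the scrambled shRNA, cells expressing shRNA FZD6 #1 and cells expressing shRNA FZD6 #2. *FZD6* encodes Frizzled-6, a Wnt receptor, and the comparison asks what its loss changes in these cells. No drug or oxidant treatment is named in the labels for any group, all 9 libraries come from this line, and the labels do not say whether the triplicates are separate cultures, so p-values measure the spread between these libraries, which may be technical. The sequencing depth estimated from the deposited error bounds was 32538000 to 40715000 fragments per library, with overlapping ranges in the 3 groups. In bulk RNA, fewer cells making a transcript and less of it per cell cannot be told apart.

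The targeted transcript was lower in every knockdown library. *FZD6* stood at 20.9, 20.5 and 20.04 FPKM with the scrambled shRNA, at 9.47, 10.2 and 9.80 FPKM with shRNA #1, and at 7.84, 8.79 and 7.69 FPKM with shRNA #2. The difference of both shRNAs from the scrambled group was -1.12 on the log2(FPKM + 1) scale (SE 0.0848, adjusted p = 0.00049), and shRNA #2 left less transcript than shRNA #1 (-0.25, adjusted p = 0.0273). The 5 epithelial markers summed to 666 to 692 FPKM with the scrambled shRNA, 714 to 728 FPKM with shRNA #1 and 665 to 692 FPKM with shRNA #2. Among them *EPCAM* (0.26, adjusted p = 0.0173) and *KRT19* (0.15, adjusted p = 0.00793) were higher and *CDH1* (-0.28, adjusted p = 0.0105) lower over both shRNAs. *KRT8* and *KRT18* did not pass over both. With shRNA #2, *KRT8* was lower than with the scrambled shRNA (-0.15, adjusted p = 0.0145) and than with shRNA #1 (-0.18, adjusted p = 0.0231). The part of these markers in the results was not tested. The prostate lineage markers *KLK2*, *KLK3* and *TMPRSS2* stayed below 0.1 FPKM in every library, as did 4 of 5 stromal and 4 of 5 blood and endothelial markers.

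NRF2, the product of *NFE2L2*, is a transcription factor that is made and destroyed continuously. KEAP1 is the adaptor that presents NRF2 to a CUL3 ubiquitin ligase, so that NRF2 is degraded by the proteasome in unstressed cells. Oxidants and electrophiles modify cysteines of KEAP1, NRF2 then accumulates, pairs with small MAF proteins and binds antioxidant response elements in front of genes for glutathione synthesis, thioredoxin recycling, quinone reduction and heme breakdown. Because NRF2 is controlled largely as a protein, the transcripts of its targets are its usual readout in RNA data, and nothing here measures the NRF2 protein itself.

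The core of the antioxidant response element reads TGACNNNGC. RefSeq promoter sequences, from 250 bases before to 50 bases after a transcription start on GRCh38.p14, were given for 8 of the 10 genes in 11 windows, and both strands were searched. The core was found in 4 of the 11 windows, those of 3 genes, against 13.3% of all 35116 promoter windows. The related AP-1 motif TGAGTCA, whose reverse complement TGACTCA can form the first 7 letters of the core, was in 0 of the 11 windows and in 4.95% of all windows. A match describes letters only. The sites are shown because they mark which transcripts of *GCLM*, *TXNRD1* and *KEAP1* start beside such letters. Each is printed 5′ to 3′ on the strand of the match, with the core in capitals and 10 bases on each side.
*GCLM*, 34 bases before its start: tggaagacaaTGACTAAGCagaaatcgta
*TXNRD1*, 99 bases before the upstream start: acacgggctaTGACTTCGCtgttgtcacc
*TXNRD1*, 8 bases before the upstream start: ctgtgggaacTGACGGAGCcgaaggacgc
*TXNRD1*, 102 bases before the downstream start: agagtcagaaTGACAAAGCagaaatccac
*KEAP1*, 54 bases before the inner start: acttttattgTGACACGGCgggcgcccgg
*KEAP1*, 31 bases before the inner start: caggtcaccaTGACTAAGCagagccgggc

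In the same order, the printed windows are chr1:93909446-93909474 on the plus strand, chr12:104215670-104215698 on the plus strand, chr12:104215761-104215789 on the minus strand, chr12:104286920-104286948 on the minus strand, chr19:10502807-10502835 on the minus strand and chr19:10502784-10502812 on the plus strand. The window of *GCLM* and those at the upstream *TXNRD1* start lie before the gene or across its first transcribed bases, whereas the window at the downstream *TXNRD1* start and both *KEAP1* windows lie inside the annotated gene, before an inner start. The downstream *TXNRD1* start, at position 104287032 of chromosome 12, is the start of 6 of the 7 annotated transcripts and of 99.8% of the FPKM of the gene, while the upstream start carried 0.189%. The *KEAP1* sites sit beside the start at position 10502771 of chromosome 19, used by transcript NM_012289, which took 74.5% of the FPKM of the gene over the 9 libraries. For *GCLM*, the start at 93909430 of chromosome 1 belongs to NM_002061, with 86.2% of the FPKM.

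The levels of the 10 genes spanned more than 3 powers of 10 and kept the same order in all 3 groups. In cells expressing the scrambled shRNA, *NQO1* averaged 469 ± 4.71 FPKM (SD, n = 3) and *TXNRD1* 423 ± 11.5 FPKM, ranks 139 and 156 among the 12509 tested genes. *SRXN1* followed at 139 ± 1.35 FPKM, then *HMOX1* at 62.9 ± 2.45, *GCLC* at 53.2 ± 0.996, *NFE2L2* at 44.8 ± 1.11 and *GCLM* at 24.5 ± 1.57 FPKM. *KEAP1*, at 8.27 ± 0.246 FPKM, lay near the middle of the tested genes (rank 6861). *AKR1B10* (1.23 ± 0.137 FPKM) and *AKR1C1* (0.268 ± 0.00967 FPKM) were at the bottom. Neighbours in this order did not overlap within a group, with the exception of *GCLC* and *NFE2L2* in cells expressing shRNA #1.

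**Figure D1:**
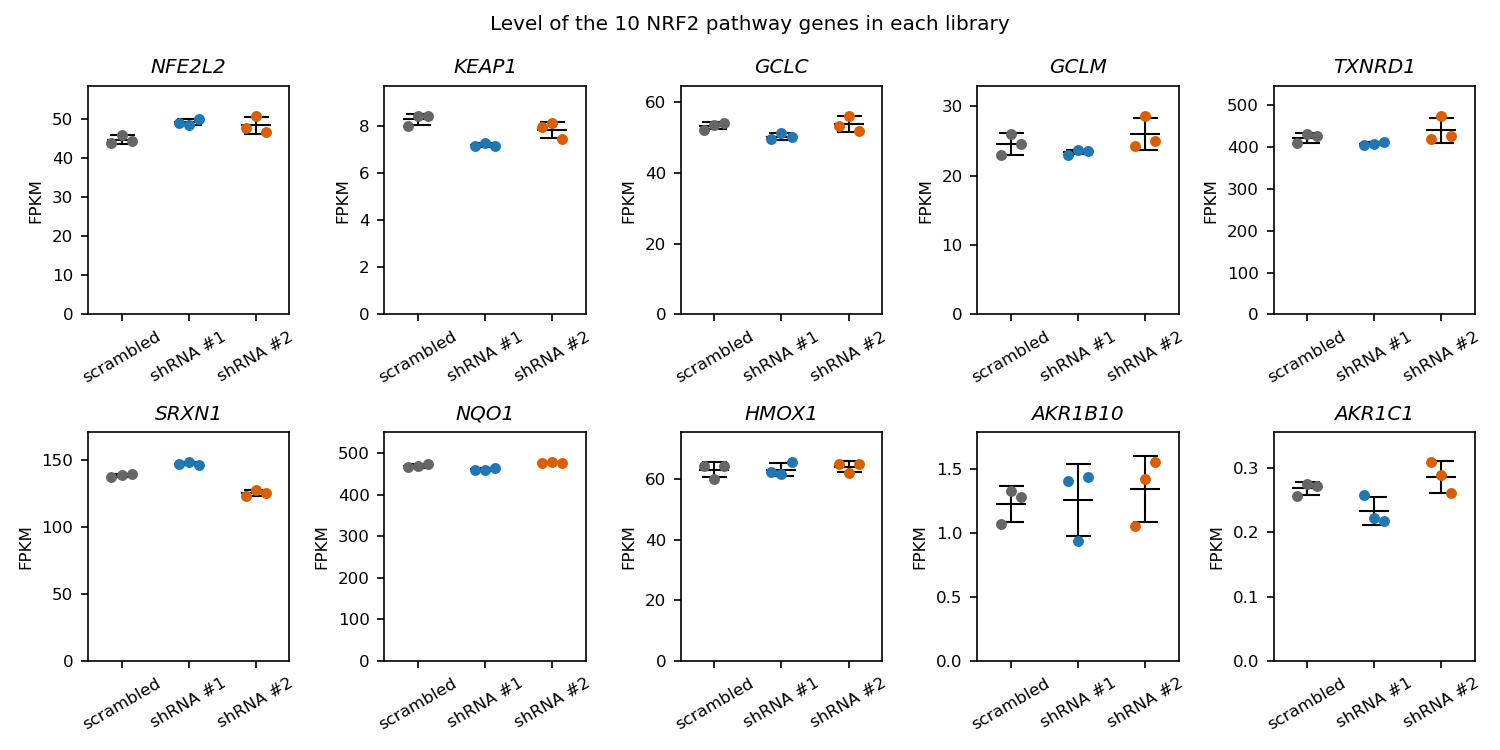
FPKM of each of the 10 genes (vertical axes from 0, each gene on its own scale) in the 3 groups; points are libraries, the long horizontal mark is the group mean and the bars are 1 SD. *NFE2L2* lies higher in all 6 knockdown libraries than in the scrambled libraries, *SRXN1* lies above the scrambled libraries with shRNA #1 and below them with shRNA #2, and *HMOX1* overlaps in all 3 groups.

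Across the comparison of both shRNAs with the scrambled shRNA, 1 of the 9 tested members rose, 0 fell and 8 did not pass the test (limma, adjusted p under 0.05 over 12509 genes). Over all tested genes, 13.5% rose and 7.1% fell, and at an unadjusted p under 0.05 there was 1 member higher and 1 lower (*KEAP1*). Their median difference was 0.01 on the log2(FPKM + 1) scale, beside 0.03 for all tested genes. The genes are taken below by role, and both comparisons with the scrambled shRNA use the same 3 control libraries.

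*NFE2L2* (chr2:177230303-177264727, minus strand), which encodes NRF2, was the member that rose. It stood at 43.8, 46.0 and 44.5 FPKM with the scrambled shRNA, at 49.1, 48.6 and 50.03 FPKM with shRNA #1, and at 47.7, 50.9 and 46.8 FPKM with shRNA #2. The 6 knockdown libraries all lay above the 3 scrambled libraries, a pattern that 16.4% of tested genes showed in this direction and 9.46% in the other, with 0 other members in either. Its mean was 9.08% higher in the knockdown libraries, a log2 difference of 0.12 (SE 0.0323, 95% interval 0.05 to 0.20, adjusted p = 0.0301). Taken alone, shRNA #1 gave 0.13 (adjusted p = 0.0420), and shRNA #2 gave 0.11 (adjusted p = 0.0612). The call was lost on leaving out any of the 3 scrambled libraries (adjusted p = 0.120, 0.0604 and 0.0958 without replicates 1, 2 and 3) or any of the shRNA #1 libraries (adjusted p = 0.0546, 0.0527 and 0.0584), and also under quantile normalization, where the difference was 0.07 (adjusted p = 0.198).

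*KEAP1* (chr19:10486125-10503356, minus strand), the repressor of NRF2, stood at 7.98, 8.42 and 8.39 FPKM with the scrambled shRNA and at 7.15, 7.27 and 7.13 FPKM with shRNA #1. With shRNA #2 it stood at 7.95, 8.11 and 7.46 FPKM. The shRNA #1 libraries were all below the scrambled ones, and the shRNA #2 libraries overlapped them. *KEAP1* fell with shRNA #1 by 0.18 on the log2 scale (95% interval -0.26 to -0.10, adjusted p = 0.0151), while the difference was -0.07 with shRNA #2 (interval -0.15 to 0.01, adjusted p = 0.189) and -0.12 over both (adjusted p = 0.0818). The shRNA #1 call was lost without scrambled replicate 2 (adjusted p = 0.0595) or without shRNA #1 replicate 1 or 3 (0.0525 and 0.0588), and without shRNA #2 replicate 2 the difference over both shRNAs passed (adjusted p = 0.0296). The direct difference between the shRNAs, 0.11, did not pass (adjusted p = 0.113).

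Because *NFE2L2* lay higher and *KEAP1* lower with shRNA #1, the FPKM ratio of the pair was computed after these values were seen, as a description without a test. It was 5.49, 5.46 and 5.30 with the scrambled shRNA, 6.87, 6.68 and 7.02 with shRNA #1, and 6.00, 6.27 and 6.28 with shRNA #2. The 3 groups did not overlap, which the choice of this pair favoured, and shRNA #1 held the highest ratios. The share of other gene pairs that separate in this way was not computed.

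*GCLC* (chr6:53497341-53545101, minus strand) and *GCLM* (chr1:93885199-93909430, minus strand) encode the catalytic and modifier subunits of glutamate-cysteine ligase, the rate-limiting enzyme of glutathione synthesis. *GCLC* stood at 52.1, 53.5 and 54.0 FPKM with the scrambled shRNA, at 49.4, 51.1 and 50.01 FPKM with shRNA #1, and at 53.2, 56.0 and 51.7 FPKM with shRNA #2. All shRNA #1 libraries were below the other 6, but the difference from the scrambled group, -0.08 on the log2 scale, did not pass the test (adjusted p = 0.136). *GCLM* stood at 23.0, 26.1 and 24.5 FPKM, then 23.1, 23.7 and 23.5 FPKM, then 24.3, 28.6 and 25.0 FPKM in the same order of groups. Its groups overlapped with the scrambled libraries, and the difference over both shRNAs was 0.01 (95% interval -0.15 to 0.17, adjusted p = 0.941). The level of *GCLC* was 2.17 ± 0.113 times that of *GCLM* with the scrambled shRNA, 2.14 ± 0.0129 times with shRNA #1 and 2.07 ± 0.114 times with shRNA #2 (SD, n = 3), so the subunit ratio differed by no more than the spread between libraries.

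*TXNRD1* (chr12:104215779-104350307, plus strand) encodes cytosolic thioredoxin reductase, which uses NADPH to recharge thioredoxin. It stood at 409.7, 432 and 426 FPKM with the scrambled shRNA, at 406, 407 and 412 FPKM with shRNA #1, and at 420.1, 475 and 427 FPKM with shRNA #2. The scrambled range overlapped both knockdown ranges, and a single shRNA #2 library, replicate 2, lay above the rest. Over both shRNAs the log2 difference was 0.01 (95% interval -0.11 to 0.12, adjusted p = 0.956), and without that library it was -0.03 (adjusted p = 0.507).

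*SRXN1* (chr20:646615-653200, minus strand) encodes sulfiredoxin, which repairs over-oxidized peroxiredoxins. It stood at 137, 139 and 139.9 FPKM with the scrambled shRNA, at 147, 149 and 147 FPKM with shRNA #1, and at 123, 128 and 126 FPKM with shRNA #2. The 3 groups did not overlap, and the shRNAs lay on opposite sides of the control. *SRXN1* rose by 0.09 on the log2 scale with shRNA #1 (95% interval 0.03 to 0.14, adjusted p = 0.0434) and fell by 0.14 with shRNA #2 (interval -0.20 to -0.09, adjusted p = 0.00629). Between the shRNAs it was 14.7% lower with shRNA #2, a log2 difference of -0.23 (SE 0.0242, adjusted p = 0.00238). The fall with shRNA #2 and the difference between the shRNAs kept their calls in all 20 alternatives, with adjusted p up to 0.0276 and 0.0180. The rise with shRNA #1 was lost in 11 of 20, among them each omission of a scrambled library (adjusted p = 0.126, 0.113 and 0.0876 without replicates 1, 2 and 3), each omission of an shRNA #1 library (0.107, 0.134 and 0.111) and the omission of shRNA #2 replicate 3 (0.0550). With the opposite signs, the value over both shRNAs was -0.03 (adjusted p = 0.814).

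*NQO1* (chr16:69709401-69726560, minus strand), the quinone reductase most often used as a readout of NRF2, was the most abundant member. It stood at 465, 468 and 474 FPKM with the scrambled shRNA, at 458, 459.5 and 464 FPKM with shRNA #1, and at 475, 477 and 475 FPKM with shRNA #2. The ranges did not overlap, yet they were only a few percent apart: -1.81% with shRNA #1 and 1.51% with shRNA #2 relative to the scrambled mean. None of its differences passed the test on the FPKM as deposited, and the 95% interval over both shRNAs was -0.06 to 0.05 on the log2 scale (adjusted p = 0.957). The values depended on the scaling, and with shRNA #2 the direction turned: under quantile normalization *NQO1* was lower with the knockdown (-0.11, adjusted p = 0.0237), with shRNA #1 (-0.12, adjusted p = 0.0303) and with shRNA #2 (-0.10, adjusted p = 0.0402).

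*HMOX1* (chr22:35381096-35394207), heme oxygenase 1, which breaks down heme and is induced by many stresses, stood at 64.4, 60.1 and 64.3 FPKM with the scrambled shRNA, at 62.1, 61.4 and 65.5 FPKM with shRNA #1, and at 64.9, 62.0 and 65.1 FPKM with shRNA #2. The 3 groups overlapped throughout. The log2 difference over both shRNAs was 0.01 (95% interval -0.07 to 0.09, adjusted p = 0.822), and no alternative gave a call in any comparison.

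*AKR1B10* (chr7:134527567-134541412) and *AKR1C1* (chr10:4963415-4983283, plus strand) encode aldo-keto reductases that reduce reactive carbonyls and, for *AKR1C1*, steroids. *AKR1B10* stood at 1.07, 1.33 and 1.28 FPKM with the scrambled shRNA, at 1.41, 0.937 and 1.44 FPKM with shRNA #1, and at 1.06, 1.42 and 1.55 FPKM with shRNA #2. Its groups overlapped, with a log2 difference of 0.04 over both shRNAs (95% interval -0.17 to 0.25, adjusted p = 0.779), and 54.6 to 94.5 estimated fragments per library limited the precision. *AKR1C1* lay between 0.218 and 0.309 FPKM, on 50.7 to 71.3 estimated fragments, and was not tested. The fragment estimate took a transcript length of 6705 bases for *AKR1C1*, beside 1590 for *AKR1B10*, and a shorter length would give fewer fragments. Reads of *AKR1C1* are hard to separate from those of the near-identical *AKR1C2*, which lay between 0.457 and 0.706 FPKM. In the same families *AKR1C3* averaged 7.55 ± 0.499 FPKM and *AKR1B1* 212 ± 3.76 FPKM in the scrambled libraries (SD, n = 3).

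**Figure D2:**
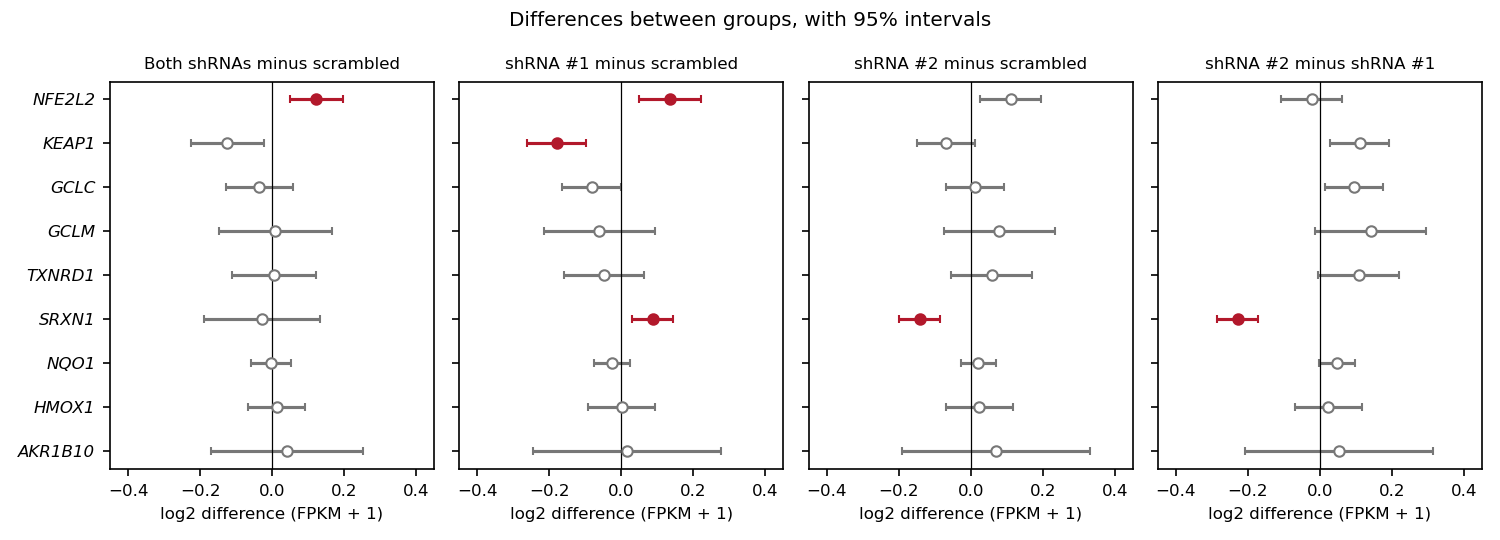
Differences of the 9 tested genes on the log2(FPKM + 1) scale (horizontal axis) with 95% intervals, in 4 panels: both shRNAs, shRNA #1 and shRNA #2 minus the scrambled shRNA, and shRNA #2 minus shRNA #1. Filled red points have an adjusted p under 0.05; the largest, for *SRXN1* between the shRNAs, is -0.23.

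Counted by shRNA, 2 of 9 members rose and 1 fell with shRNA #1, beside 11.7% and 7.19% of all tested genes. At an unadjusted p under 0.05, 2 members were higher and 2 lower with shRNA #1 (*KEAP1* and *GCLC*). With shRNA #2, 0 rose and 1 fell, beside 15.3% and 11.4%, with 1 member higher (*NFE2L2*) at an unadjusted p under 0.05. Without overlap, 2 members were higher (*NFE2L2* and *SRXN1*) and 3 lower (*KEAP1*, *NQO1* and *GCLC*) with shRNA #1, where 28.9% and 17.9% of tested genes were so. With shRNA #2, 2 were higher (*NFE2L2* and *NQO1*) and 1 lower (*SRXN1*), beside 24% and 16.6%. Set directly against each other, the shRNAs differed in 1 of 9 members by the test, *SRXN1*, lower with shRNA #2, as were 4.79% of tested genes, and 0 members were higher, beside 1.92%, with 2 higher (*KEAP1* and *GCLC*) at an unadjusted p under 0.05. Without overlap, 5 of the 9 members were higher with shRNA #2 than with shRNA #1 (*KEAP1*, *NQO1*, *GCLC*, *GCLM* and *TXNRD1*), where 11.8% of tested genes were, and *SRXN1* was lower, where 14.5% were. None of these 5 passed the adjusted test. The lowest adjusted p among them was 0.113 for *KEAP1* and the highest 0.265 for *GCLM*, with log2 differences from 0.05 for *NQO1* to 0.14 for *GCLM*. Without shRNA #2 replicate 2 the difference was 0.07 for *GCLM* (adjusted p = 0.415) and 0.05 for *TXNRD1* (adjusted p = 0.309).

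The transcript estimates of the members were less steady than the gene sums. *KEAP1* has 2 annotated transcripts, which end at the same base and begin at positions 10502771 and 10503356 of chromosome 19. The share of the inner one, NM_012289, was 57.1%, 60.4% and 91.0% with the scrambled shRNA, 81.2%, 82.5% and 89.2% with shRNA #1, and 46.5%, 81.6% and 84.6% with shRNA #2. The share moved widely between libraries of the same group while the sum stayed within 7.13 to 8.42 FPKM. For *TXNRD1*, NM_182729 took 64.2% to 72.7% and NM_182743 20.3% to 28.6%. The share of NM_182743 was 26.1% to 28.6% with shRNA #2, above the 20.9% to 24.2% with shRNA #1, and the scrambled libraries spanned both (20.3% to 28.1%). *NFE2L2* was carried by NM_006164 at 92.8% to 95.7% and *NQO1* by NM_000903 at 90.3% to 92.1%. Of 17 member transcripts with a mean of at least 1 FPKM, 0 passed the test for both shRNAs against the scrambled shRNA, beside 1.26% of 19658 transcripts tested, and NM_006164 of *NFE2L2* had the lowest unadjusted p (0.0268, adjusted p = 0.211), the single transcript of the 17 under 0.05.

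**Figure D3:**
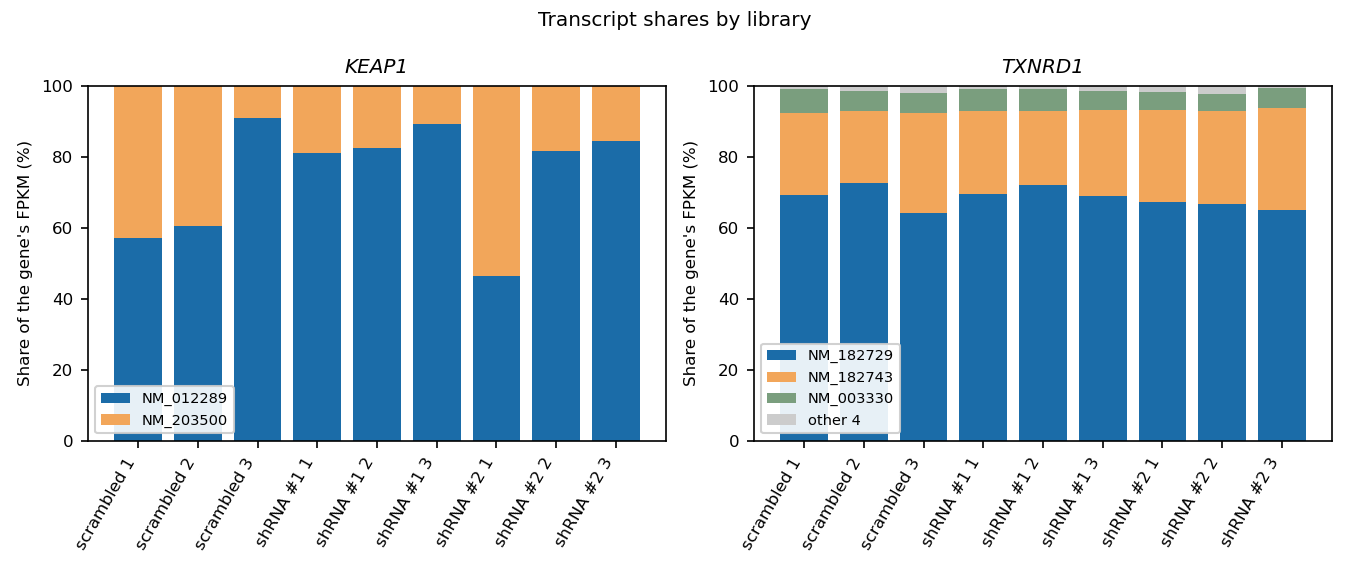
Share of the FPKM of the gene (vertical axis, percent) assigned to each annotated transcript of *KEAP1* and *TXNRD1* in each of the 9 libraries. The NM_012289 share of *KEAP1* ranges from 46.5% to 91.0% and varies within the scrambled and shRNA #2 groups.

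The wider pathway was read from 6 lists holding 122 genes, of which 108 were tested. The lists, too, were chosen with earlier results of these data known. Over both shRNAs, 21 of the 108 rose, 8 fell and 79 did not pass, beside 13.5% higher and 7.1% lower of all tested genes. The median difference of the 108 genes was 0.04, beside 0.03 for all. The balance between rises and falls depended on the scaling: quantile normalization gave 9 higher and 12 lower, and removing the trend with transcript length gave 7 higher and 11 lower. Over all tested genes, 65.6% of calls were higher, against 49.7% with quantile normalization and 53.7% with the length trend removed. Without scrambled replicates 1, 2 and 3, 12, 8 and 19 list genes were called (11.1%, 7.41% and 17.6% of those tested), where 9.16%, 7.42% and 11.8% of all tested genes were. As reported, the shares were 26.9% of the list genes and 20.6% of all tested genes. Of the 21 genes named below, 6 (*CREBBP*, *RXRA*, *ABCC1*, *GLRX3*, *OPLAH* and *HMOX2*) kept their calls in all alternatives, and the other 15 lost theirs in 1 to 17 of them. Without scrambled replicates 1, 2 and 3, 11, 14 and 7 of the 21 calls were lost, without shRNA #1 replicates 1, 2 and 3, 7, 6 and 6, and without shRNA #2 replicates 1, 2 and 3, 3, 0 and 5. Where a gene below carries a further adjusted p, it is the value without the scrambled library named beside it or under the setting named.

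Among 17 tested regulators of NRF2, 2 rose, 4 fell and 11 did not pass, beside 13.5% higher and 7.1% lower of all tested genes. *MAFF*, a small MAF partner of NRF2, rose from 4.40 to 4.50 FPKM in the scrambled libraries to 4.95 to 6.23 FPKM in the knockdown libraries (0.27, adjusted p = 0.0131, and 0.0584 without scrambled replicate 2). *RBX1*, the RING subunit of the CUL3 ligase, rose by 0.17 (adjusted p = 0.0347, and 0.137 without scrambled replicate 1). *CREBBP*, a coactivator that acetylates NRF2, fell from 10.2 to 10.7 FPKM to 7.68 to 8.97 FPKM (-0.30, adjusted p = 0.00492). *RXRA*, a nuclear receptor that binds and represses NRF2, fell by 0.20 (adjusted p = 0.00454), and *GSK3B*, a kinase that marks NRF2 for degradation outside the KEAP1 route, fell by 0.18 (adjusted p = 0.0301, and 0.111 without scrambled replicate 2). With the length trend removed, *RBX1* was at 0.07 (adjusted p = 0.261), *GSK3B* at -0.11 (adjusted p = 0.118) and *CREBBP* at -0.18 (adjusted p = 0.018). Repressing and activating regulators are both among the genes that fell.

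In the detoxification and export list, 5 of 25 tested genes rose, 1 fell and 19 did not pass, beside 13.5% higher and 7.1% lower of all tested genes. *GSTO1*, an omega-class glutathione transferase, rose from 90.6 to 92.7 FPKM to 104 to 112 FPKM (0.24, adjusted p = 0.00302). *GSTM3*, a mu-class transferase, rose by 0.17 (adjusted p = 0.0274, and 0.114 without scrambled replicate 2), as did *OSGIN1*, an oxidative stress induced growth inhibitor (0.17, adjusted p = 0.0115, and 0.0552 without the same library). *ABCC1*, which encodes the export pump MRP1 for glutathione conjugates, fell from 22.5 to 23.3 FPKM to 16.3 to 18.8 FPKM (-0.35, SE 0.0426, adjusted p = 0.00245). With the length trend removed, *GSTO1* was at 0.12 (adjusted p = 0.0439), *GSTM3* at 0.09 (adjusted p = 0.251) and *OSGIN1* at 0.10 (adjusted p = 0.0775).

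The glutathione list had 6 of 18 tested genes higher, 1 lower and 11 that did not pass, with a median of 0.10. Of all tested genes, 13.5% were higher and 7.1% lower. The glutaredoxins *GLRX3* (99.8 to 103 FPKM against 118 to 123 FPKM, 0.25, adjusted p = 0.00138) and *GLRX* (0.27, adjusted p = 0.0289, and 0.116 without scrambled replicate 1) rose. *CHAC2*, which degrades glutathione, rose by 0.25 (adjusted p = 0.0151, and 0.0697 without scrambled replicate 1), and *OPLAH*, which returns 5-oxoproline to glutamate in the same cycle, fell by 0.22 (adjusted p = 0.00911). The other genes that rose, named after their values were seen, were the amino acid transporter subunit *SLC3A2* (0.24, adjusted p = 0.00591), *GGCT*, which cleaves gamma-glutamyl amino acids (0.20, adjusted p = 0.0334), and *GSS*, the synthetase of the last step of glutathione synthesis (0.12, adjusted p = 0.0237). Their calls were not followed through the alternatives. With the length trend removed, *GLRX* was at 0.16 (adjusted p = 0.116) and *CHAC2* at 0.15 (adjusted p = 0.129). Transcripts of *GLRX*, *CHAC2* and *GGCT* are 1220, 1321 and 1129 bases long, and those of *GSS* and *GLRX3* 1920 and 2275 bases. Of all genes in length classes around 1044 and 1324 bases, 31.0% and 28.1% rose. In the classes around 1947 and 2339 bases, 22.2% and 17.2% did.

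In the thioredoxin, peroxiredoxin and dismutase list, 5 of 23 rose, 1 fell and 17 did not pass, beside 13.5% higher and 7.1% lower of all tested genes. *PRDX4*, the peroxiredoxin of the endoplasmic reticulum, rose by 0.21 although the groups overlapped (59.8 to 66.6 FPKM against 65.6 to 77.3 FPKM, adjusted p = 0.0301). The mitochondrial thioredoxin *TXN2* rose by 0.17 (adjusted p = 0.0272) and the cytosolic *TXN* by 0.14 (adjusted p = 0.0337). Under quantile normalization the *TXN* difference was 0.0034 (adjusted p = 0.959), and without scrambled replicate 2 the calls of *PRDX4*, *TXN2* and *TXN* were lost (adjusted p = 0.123, 0.112 and 0.111). With the length trend removed, *PRDX4* was at 0.09 (adjusted p = 0.27), *TXN2* at 0.10 (adjusted p = 0.116) and *TXN* at 0.01 (adjusted p = 0.795). *SESN3*, a sestrin, fell by 0.21 (adjusted p = 0.0131), with 0.0578 and 0.0517 without scrambled replicates 2 and 3 and a difference of -0.07 (adjusted p = 0.383) once the length trend was removed.

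Of 14 genes for NADPH supply, 1 rose and 1 fell, beside 13.5% and 7.1% of all tested genes. They were, in this order, *TALDO1* of the pentose phosphate pathway (0.12, adjusted p = 0.0469, and 0.163 without scrambled replicate 2) and *IDH1*, cytosolic isocitrate dehydrogenase (-0.13, adjusted p = 0.0364, and 0.136 without that library). The *TALDO1* call was lost in 17 of the 20 alternatives, among them the replicate block (adjusted p = 0.0615) and removal of the length trend, where the difference was 0.02 (adjusted p = 0.634). Of 11 genes for heme and iron, 2 rose and 0 fell, beside 13.5% and 7.1% of all tested genes. Those that rose were *HMOX2*, the constitutive heme oxygenase (21.7 to 22.2 FPKM against 24.1 to 26.2 FPKM, 0.18, adjusted p = 0.00472), and *BLVRB*, biliverdin reductase B (0.19, adjusted p = 0.0298, and 0.114 without scrambled replicate 1). With the length trend removed, *BLVRB* was at 0.06 (adjusted p = 0.302) and *HMOX2* at 0.11 (adjusted p = 0.0187). *HMOX2* rose while its inducible relative *HMOX1* did not pass the test.

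**Figure D4:**
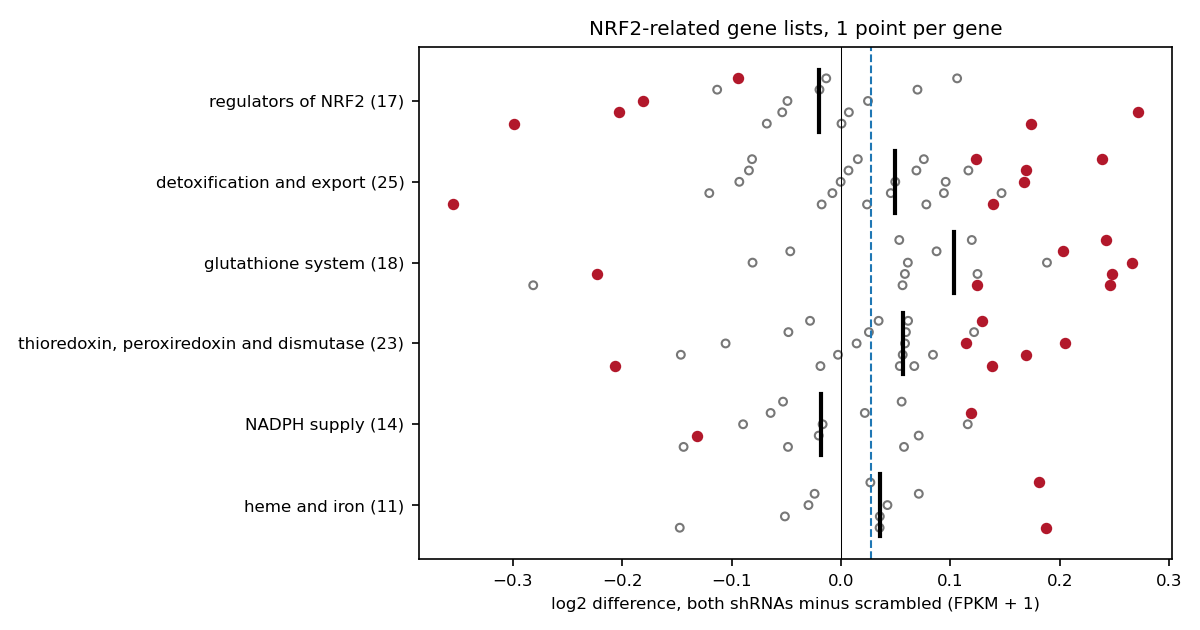
Log2(FPKM + 1) difference of both shRNAs minus the scrambled shRNA (horizontal axis) for each tested gene of the 6 lists, with the number tested in brackets. Filled red points have an adjusted p under 0.05, thick black bars are list medians and the dashed line is the median of all tested genes, 0.03. The glutathione list has the highest median, 0.10, and *ABCC1* the lowest value, -0.35.

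Between the shRNAs, 8 of the 108 list genes differed by the test, 3 higher and 5 lower with shRNA #2 (2.78% and 4.63% of the list genes, beside 1.92% and 4.79% of all tested genes). Without shRNA #1 replicates 1, 2 and 3 the count was 5, 2 and 4, without shRNA #2 replicate 2 it was 12, and without any other single library it was 6 to 10. These 8 are named after their values were seen. The higher ones were *ME1*, malic enzyme and an NADPH source (0.30, adjusted p = 0.0211), *RPIA* of the pentose phosphate pathway (0.19, adjusted p = 0.00335) and *TRIM16* (0.19, adjusted p = 0.0169). The lower ones were *NADK2*, the mitochondrial NAD kinase (-0.39, adjusted p = 0.0116), the mitochondrial peroxiredoxin *PRDX3* (-0.38, adjusted p = 0.0151), *NCOA4*, which delivers ferritin for breakdown (-0.30, adjusted p = 0.00403), the thioredoxin inhibitor *TXNIP* (-0.27, adjusted p = 0.0423) and *SQSTM1*, the autophagy adaptor that binds KEAP1 (-0.11, adjusted p = 0.0465).

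Differences in these libraries followed transcript length. Over 12092 genes with a known length, Spearman's rho between length and the difference was -0.45 for both shRNAs, -0.45 for shRNA #1 and -0.37 for shRNA #2, and 0.06 between the shRNAs. The points are genes that share the same libraries, and the value is a description. *NFE2L2*, *KEAP1*, *NQO1* and *SRXN1* fall in a length class, around 2785 bases, whose median difference was 0.02, with a 10th percentile of -0.12 and a 90th of 0.14. *NFE2L2* was at 0.12 and *KEAP1* at -0.12. With the trend removed, the *NFE2L2* difference was 0.10 (adjusted p = 0.0679). The part of length in the list counts was not tested beyond this alternative.

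**Figure D5:**
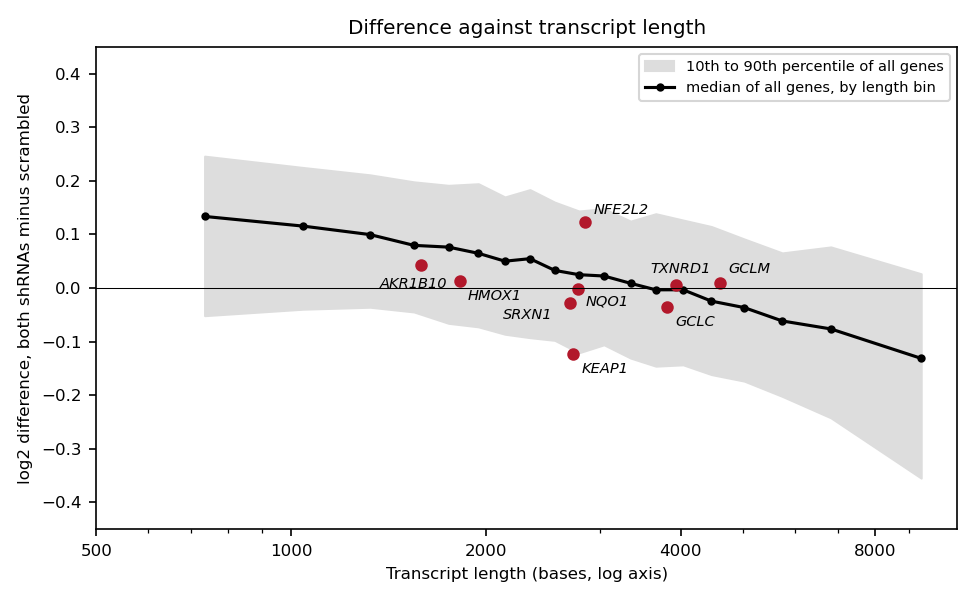
Log2(FPKM + 1) difference of both shRNAs minus the scrambled shRNA (vertical axis) against transcript length (horizontal log axis). The line gives the median and the grey band the 10th to 90th percentile of all genes in 19 of 20 length bins of equal size (the shortest bin, with a median of 98 bases, is left out), and red points are the 9 tested members, from -0.12 for *KEAP1* to 0.12 for *NFE2L2*.

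The patterns most like those of the main members were sought over the 9 libraries by Pearson's r of log2(FPKM + 1), as a description without a test. Picking the highest r among the 12509 tested genes favours high values. *RMND1*, *SAR1A* and *ALG5* were closest to *NFE2L2* (r = 0.98 for each). *RMND5A* and *GPAT3* were close to *NQO1* (r = 0.96 and 0.94), and *PPAN-P2RY11*, *QPCTL* and *SLC9A7* to *HMOX1* (r = 0.91, 0.91 and 0.88). None of these 8 genes is on the lists above, and of them *GPAT3* moved most between the shRNAs, from 14.8 ± 0.245 FPKM with shRNA #1 to 20.8 ± 1.27 FPKM with shRNA #2 (SD, n = 3).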

How the data were processed

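RNA was sequenced from DU145 cells with a stranded mRNA kit, and the authors mapped reads with STAR and computed FPKM with Cufflinks (versions not given in the sources used here). The deposited FPKM are given per RefSeq accession and locus, with error bounds. Loci match hg38, the build in the submitters' processing notes, although the methods name mm10. FPKM were summed per gene symbol through RefSeq (72645 of 73240 accessions matched, and 42 genes with a failed entry were left out). Raw counts were not used here, and depth was estimated from the error bounds, covering counting error only. Genes averaging 1 FPKM or more over the 9 libraries (12509) were tested: log2(FPKM + 1) was fitted with limma 3.58.1 (R 4.3.3), once with knockdown against scrambled (6 against 3) and once with 3 groups, with Benjamini-Hochberg adjustment over all tested genes, 95% intervals and a threshold of 0.05. The pseudocount understates changes of low genes. On data simulated for the knockdown comparison over 12509 genes, 63% of planted 1.2-fold changes and 93% of planted log2 0.5 changes were called. The simulated libraries had independent noise, no difference between the shRNAs and no length trend, so these shares need not hold for the real libraries. Named genes were all members, *FZD6*, for each list up to 3 called genes with the largest rise and 3 with the largest fall, 3 genes most correlated with *NFE2L2*, *NQO1* and *HMOX1*, and reductase paralogs. Some genes of these sets are not reported here. Members and lists were chosen with earlier results of these data known. Alternatives were other pseudocounts (0.1 and 0.01), filters (none, or at least 5 FPKM), median centring, quantile normalization, removal of the length trend (lowess span 0.3), primary chromosomes only, protein-coding accessions only, a replicate block and leaving out each library. Plots were drawn with matplotlib from the same values.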

Additional observations from a re-analysis of the deposited data

Results flagged for a closer look

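The 6 knockdown libraries of 32 genes were checked for a library far from the others. Chance would give this in about 1 in 20 genes (1.6 genes). That rate assumes libraries of a single group, whereas the libraries of both shRNAs were pooled here, and the genes share these libraries. In the check 2 members stood out, both in shRNA #2 replicate 2. *GCLM* was at 28.6 FPKM there and at 23.1 to 25.0 FPKM in the other 5 libraries. *TXNRD1* was at 475 FPKM there and at 406 to 427 FPKM in the others. Without that library the differences over both shRNAs were -0.03 for *GCLM* (adjusted p = 0.621) and -0.03 for *TXNRD1* (adjusted p = 0.507), and between the shRNAs 0.07 (adjusted p = 0.415) and 0.05 (adjusted p = 0.309).

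The shRNAs differed from each other in *SRXN1*, by -0.23 on the log2 scale (shRNA #2 minus shRNA #1, adjusted p = 0.00238), with all 3 libraries of shRNA #2 below all 3 of shRNA #1 and opposite directions from the scrambled shRNA. They also differed in *FZD6* itself, by -0.25 (adjusted p = 0.0273). The part of the remaining *FZD6* level in the *SRXN1* difference was not tested.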

How the results depend on the processing

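The lower *FZD6* kept its call in all 20 alternatives (-1.20 to -1.02), as did the single member called between the shRNAs. The count of members called over both shRNAs, 1 as reported, was 0 with the length trend removed, 0 with the replicate block and length trend removed together (an alternative chosen after the data were seen), and 0 to 2 on leaving out 1 library. For shRNA #1 the count of 3 became 1 with the length trend removed, 1 with the block and length together, and 0 to 3 on leaving out 1 library. For shRNA #2 the count of 1 became 2 with a mean of at least 5 FPKM, with median centring and with quantile normalization. With the first 2 of these *NFE2L2* joined (adjusted p = 0.0459 and 0.0403), and with the third *NQO1* did, its difference turning from 0.02 to -0.10. Under quantile normalization the single member called over both shRNAs was *NQO1* in place of *NFE2L2*. The count of list genes, 29 beside 2578 of all tested genes, became 18 beside 1489 with the length trend removed, 13 beside 1065 with the block and length together, and 8 to 33 beside 926 to 3231 on leaving out 1 library. The causes were not tested. Member transcripts gave 0 calls in the 16 alternatives run for them.

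The labels number the libraries 1 to 3 in each group. Same-numbered libraries had correlated deviations of -0.071 to 0.111, over 0.1 in 1 of 9 pairs, so the numbers were not treated as pairs. Differently numbered libraries ranged from -0.123 to 0.184, the highest for scrambled replicate 1 with shRNA #1 replicate 3. A library correlated best with its own number in 11 of 18 checks, where 6 would fall so by chance, at most a weak hint from the data and not from the design. The checks use each pair from both ends and are not independent. With the replicate block, the counts of members called were 1, 2 and 1 over both shRNAs, shRNA #1 and shRNA #2, 1 between the shRNAs, and 28 list genes. The *NFE2L2* call with shRNA #1 was lost (adjusted p = 0.0508), and *FZD6* was at -1.12 (adjusted p = 0.00345).

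Depth limits mainly *AKR1C1* and *AKR1B10*, both under 100 estimated fragments per library.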
